A study of Mus musculus with 163 samples.

Results

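The genes described here are 10 actin and spindle positioning genes of the mouse oocyte, Fmn2, Spire1, Spire2, Actr2, Actr3, Arpc2, Cdc42, Rac1, Rab11a and Myo5b. They were chosen by name, as the rows of the read count table whose Entrez identifiers map to these symbols, and all 10 were found among 21950 genes. Each column of the table is 1 oocyte, sequenced alone with Smart-seq2, which copies whole polyadenylated transcripts into cDNA and amplifies them. The study asked which step of culture alters gene expression in oocytes made outside the body, and collected growing oocytes (GROs) and fully grown oocytes (FGOs) from several sources. In vivo GROs (24 oocytes) and in vivo FGOs (20) came from mice, for which the labels give neither age nor strain. Gonad-derived GROs (24) and FGOs (24) came from E12.5 female gonads that had been dissociated and reaggregated with all their cells. For these gonads the methods do not separately name a mouse stock. iPSC-derived GROs (23) and FGOs (24) came from a single female line of induced pluripotent stem cells, BVSC-iPSC, with the reporters Blimp1-Venus and Stella-ECFP. Germ cells made from that line were aggregated with E12.5 gonadal somatic cells of outbred Swiss Webster mice. These had been depleted of germ cells, so a few oocytes may come from residual germ cells of the gonads. The FGOs labelled 6 dpp (24) came from follicles taken from mice at 6 days post partum and grown in culture. Follicle cells and the zona pellucida had been removed from every oocyte before lysis.

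In a fully grown mouse oocyte the meiotic spindle forms near the centre and has to reach the cortex before the polar body is extruded. Formin 2 (Fmn2) elongates straight actin filaments and works with the Spire proteins, which nucleate filaments on vesicles. Those vesicles carry the small GTPase Rab11a and the motor myosin Vb (Myo5b), and their outward movement keeps the cytoplasmic actin mesh in motion. At the cortex the Arp2/3 complex, which includes Actr2, Actr3 and Arpc2, builds branched actin, and Cdc42 and Rac1 are GTPases that act upstream of it at the actin cap. Oocytes store many of these transcripts during growth and use them later, so a level in a GRO or FGO describes stored RNA and is not a measure of the protein at work.

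Promoters are shown for Fmn2 and Actr2, since these were the members at least 2-fold higher in FGOs than in GROs of the same culture. Both are the windows that RefSeq (GRCm38.p6) gives from 250 bases before to 50 bases after an annotated start, 5′ to 3′ on the gene's strand, at chr1:174501575-174501874 (plus strand) for Fmn2 and chr11:20112902-20113201 (minus strand) for Actr2. For Fmn2 that start lies within the gene's full RefSeq span, which begins further upstream at 174501752. Capitals mark matches, on either strand, to the GC box GGGCGG, the CCAAT box CCAAT and the NOBOX element TAATTG, the last of which overlaps a CCAAT box in the Fmn2 window.
Fmn2: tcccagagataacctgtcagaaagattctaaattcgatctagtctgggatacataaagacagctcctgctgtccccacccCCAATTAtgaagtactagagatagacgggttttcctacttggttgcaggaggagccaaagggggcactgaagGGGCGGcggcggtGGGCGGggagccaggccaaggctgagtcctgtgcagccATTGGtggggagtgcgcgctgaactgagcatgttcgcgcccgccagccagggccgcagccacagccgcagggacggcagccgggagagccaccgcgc
Actr2: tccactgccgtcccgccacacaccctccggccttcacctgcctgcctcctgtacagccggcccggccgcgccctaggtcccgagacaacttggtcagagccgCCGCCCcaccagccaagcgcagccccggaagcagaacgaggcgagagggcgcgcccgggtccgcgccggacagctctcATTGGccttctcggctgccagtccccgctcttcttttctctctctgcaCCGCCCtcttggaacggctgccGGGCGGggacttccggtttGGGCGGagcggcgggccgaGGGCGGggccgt
The Fmn2 window holds 2 GC boxes, 2 CCAAT boxes and 1 NOBOX element, and the Actr2 window holds 5 GC boxes, 1 CCAAT box and no NOBOX element. Of 32851 windows of the same length, 35.7% hold a GC box, 37.4% a CCAAT box and 8.00% a NOBOX element, so the first 2 motifs are common. The TATA box TATAAA, held by 13.6% of windows, is in neither. CG dinucleotides number 17 in Fmn2 and 33 in Actr2 against a median of 7 over all windows, of which 31.4% and 8.56% hold at least as many. Entries were found for 7 of the 10 members. A match is a description of letters and says nothing of what binds there.

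Depth allowed every member to be read in every group. Totals ran from 2.17 to 13.7 M reads per oocyte (M, 1000000 reads), with group medians between 6.66 and 7.16 M, and the scarcest member, Actr2, still had 725 to 2383 reads per group. No animal or culture is named for any oocyte, so each group counted as 1 sample and no test was made. Pooled values are counts per 1000000 reads (CPM) summed over a group's oocytes, their 95% exact Poisson intervals cover counting error only, and the spread between oocytes is given as the lowest, median and highest oocyte. All 11 oocyte markers found in the table (of 12 listed, among them zona pellucida genes) were present in each group. The summed level of 12 granulosa cell markers was 15.4 to 95.01 CPM per oocyte in GROs and 51.7 to 149 CPM in iPSC-derived and gonad-derived FGOs, and it reached 1610 CPM in 6 dpp FGO 12 and 393 CPM in in vivo FGO 19. In GROs and these cultured FGOs most of the sum was Cyp19a1 and Nr5a2. Pooled Cyp19a1 was 8.87 to 20.1 CPM in GROs, 61.9 CPM in iPSC-derived and 77.2 CPM in gonad-derived FGOs. Among the other markers, Amh and Wt1 were lower in FGOs than in GROs of both cultures, and Gja1 and Hsd17b1 higher. The higher sum in FGOs thus does not describe the whole list. The part of follicle cell RNA in the results was not tested, but leaving out 6 dpp FGO 12 moved no member's log2 ratio by more than 0.013. Gonad-derived FGO 19 stood apart from its group: 51.6% of 12368 genes were outside the range of the other 23 oocytes, against 3.46 to 9.98% for each of those. Of 11 oocyte markers it was below all of them for 6 (Zp3 at 270 against 3476 to 5413 CPM) and above all of them for 4 (Ddx4 at 223 against 25.03 to 201 CPM), at a total of 6.95 M reads. Next came 6 dpp FGO 3 (30.3%), in vivo FGO 7 (29.5%), iPSC-derived FGO 13 (27.3%) and iPSC-derived GRO 8 (26.5%), which are among 9 oocytes that the study set aside by size. All stayed in the values given, and leaving out FGO 19, or the 9, changed no member's place relative to 2-fold. Values are shares of a library and not amounts per oocyte, so a lower share and a larger total of other RNA cannot be told apart.

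In vivo GROs did not form a uniform group. Oocytes numbered 17 to 24 stood apart from oocytes 1 to 16: of 12447 genes, 838 (6.73%) had values that did not overlap between these oocytes, and 1060 (8.52%) had pooled values at least 2-fold apart. Other runs of up to 8 numbers (1 to 8, 9 to 16, 17 to 24) in any group gave between 0 and 8 genes without overlap and between 33 and 397 genes at least 2-fold apart. Total reads were alike, with medians of 6.82 M in oocytes 17 to 24 and 6.88 and 6.67 M in oocytes 1 to 8 and 9 to 16. The summed granulosa markers ranged from 16.7 to 76.2 CPM in oocytes 17 to 24 and from 28.6 to 61.2 CPM in oocytes 1 to 16. The methods say that oocytes were lysed in strips of 8 tubes, but the labels tie no number to a strip, and the cause of the split was not tested. Because the split was noticed in the data, ratios that rest on in vivo GROs are given with all 24, with oocytes 1 to 16 and with oocytes 17 to 24.

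Levels of different genes were compared as reads per kilobase of counted exon and per 1000000 reads (RPKM). Rab11a was the most abundant member in every group (221 to 297 RPKM), followed by Cdc42 (151 to 172 RPKM). At the other end lay Actr2 (1.86 to 5.95 RPKM), Spire2 (3.83 to 7.50 RPKM) and Fmn2 (5.88 to 16.7 RPKM), in that order in every group. The middle of the order differed by stage: Spire1 stood 7th of 10 in in vivo GROs (22.0 RPKM), 6th in gonad-derived GROs (56.2 RPKM), 5th in iPSC-derived GROs (48.6 RPKM) and 3rd or 4th in the FGO groups (79.1 to 109 RPKM). Within the Arp2/3 complex, Arpc2 (87.6 to 115 RPKM) and Actr3 (22.9 to 31.2 RPKM) were far above Actr2, although the proteins form the complex in equal numbers. The authors counted 1 transcript per gene chosen at random, and for no member does the counted length (4634 bases for Fmn2, 2411 for Actr2) equal that of a GENCODE vM21 transcript (longest 6442 and 3631 bases), so these levels between genes are uncertain.

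**Figure D1:**
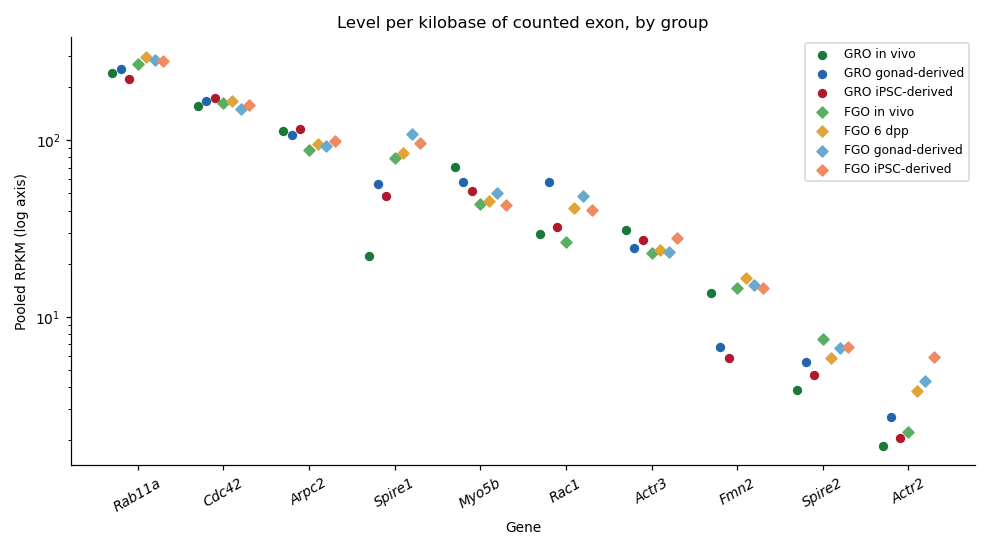
Pooled level per kilobase (RPKM, log axis) of the 10 genes in each of the 7 groups, with circles for GROs and diamonds for FGOs. Rab11a lies at the top with 221 to 297 RPKM and Actr2 at the bottom with 1.86 to 5.95 RPKM, and Spire1 shows the widest distance between GROs and FGOs.

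Comparisons were read from the log2 ratio of pooled CPM, with 0.5 CPM added to both values, and members were counted where pooled values were at least 2-fold apart. Growth was read as FGOs over GROs of a source. In vivo, 1 of 10 members (Spire1) was at least 2-fold higher in FGOs, where 10.4% of 13148 genes were, and none was 2-fold lower, where 13.2% of genes were. In iPSC-derived oocytes Actr2 and Fmn2 were at least 2-fold higher and none was lower, against 6.69% and 15.3% of 13115 genes. In gonad-derived oocytes Fmn2 was at least 2-fold higher and none was lower, against 5.82% and 9.98% of 13068 genes. Values of FGOs and GROs did not overlap for 0 members in vivo (3.45% of genes), for Actr2 in iPSC-derived oocytes (8.01%) and for Fmn2 in gonad-derived oocytes (3.98%). With 10 members, 1 member is 10% of them, so these counts are coarse beside the shares over all genes.

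Between sources of the same stage, 0 or 1 member was 2-fold apart in each comparison. Over all genes 93.0 to 97.4% lay within 2-fold there, against 76.3 to 84.2% in growth. The effect of making germ cells from iPSCs was read as iPSC-derived over gonad-derived oocytes (IVP@GRO and IVP@FGO). In IVP@GRO no member was 2-fold higher or lower and none lacked overlap, where 2.03%, 1.8% and 0.376% of 13029 genes did so. In each comparison the shares of genes 2-fold apart depended on the CPM added. Here 499 genes were 2-fold apart, against 259 with 2 CPM and 832 with 0.1 CPM added. In IVP@FGO the counts were again 0, against 2.3%, 3.9% and 0.489% of 12889 genes. The effect of differentiation into oocytes in culture was read as gonad-derived over in vivo GROs (IVD@GRO) and gonad-derived over 6 dpp FGOs (IVD@FGO). According to the paper, iPSC-derived and gonad-derived GROs were larger than in vivo GROs. The part of oocyte size in differences between GRO groups, such as IVD@GRO, was not tested. In IVD@GRO Spire1 was at least 2-fold higher (4.3% of 13059 genes were), none was lower (2.75%) and none lacked overlap (0.13%). In IVD@FGO all 10 members lay within 2-fold and overlapped, where 1.64% of 12977 genes were higher, 0.948% lower and 0.00771% did not overlap. In vitro growth was read as 6 dpp over in vivo FGOs (IVG@FGO), and here too no member passed 2-fold or lacked overlap, against 1.25% higher, 3.12% lower and 0.317% without overlap among 12932 genes. With the oocytes kept by the study, 253 of 12600 genes were higher in IVG@FGO and 299 lower, against 162 and 404 with all oocytes, and still no member passed 2-fold. Comparisons that share a group share its oocytes, so their values are set side by side and not correlated. The median log2 ratio over the members lay between -0.20 (IVP@GRO) and 0.34 (growth of iPSC-derived oocytes), and over all genes between -0.11 and 0.02.

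**Figure D2:**
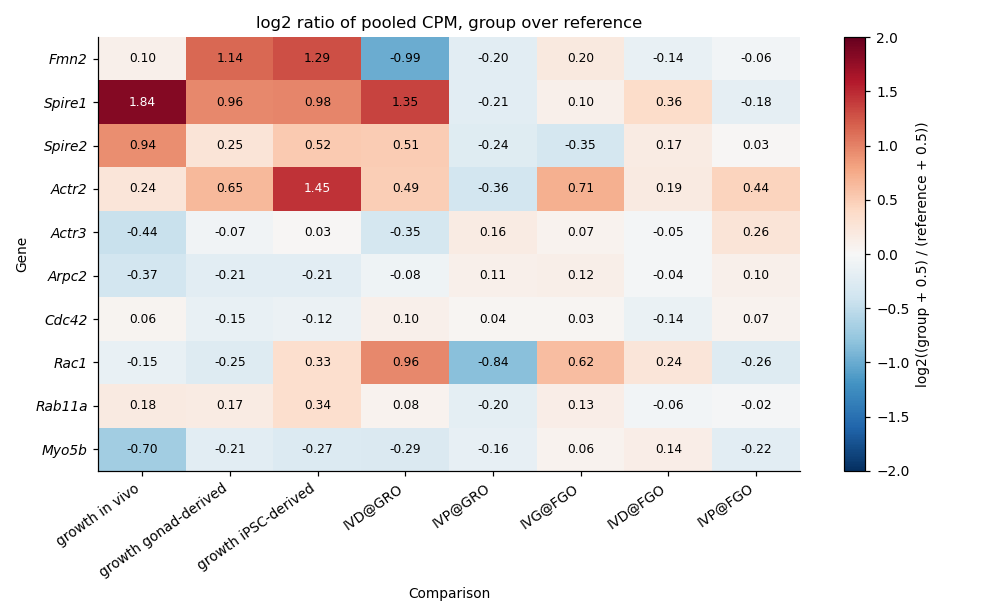
Heat map of the log2 ratio of pooled CPM (group over reference, 0.5 CPM added) for the 10 genes (rows) in the 8 comparisons (columns), with each value printed in its cell. Spire1 (1.84), Actr2 (1.45), Fmn2 (1.29 and 1.14) and, in IVD@GRO, Spire1 (1.35) are the cells at or above 1.

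Fmn2 (Entrez 54418, chromosome 1, 174501752 to 174822729, GRCm38.p6) encodes formin 2, without which the spindle stays at the centre of the mouse oocyte. In gonad-derived GROs it ran from 19.5 to 45.6 CPM with a median of 30.6, and in iPSC-derived GROs from 17.3 to 50.02 CPM with a median of 25.8. In vivo GROs 1 to 16 lay in a similar range, from 19.7 to 56.0 CPM with a median of 30.4, whereas in vivo GROs 17 to 24 held 74.6 to 183 CPM with a median of 121. Every one of oocytes 17 to 24 was thus above every other GRO of the study. Among FGOs the lowest, median and highest values were 45.9, 68.2 and 119 CPM in vivo, 57.7, 77.8 and 90.6 CPM in 6 dpp, 48.0, 69.5 and 97.1 CPM in gonad-derived and 36.9, 66.1 and 101 CPM in iPSC-derived oocytes. All 4 FGO groups overlapped, and their pooled values lay within 67.3 to 77.3 CPM.

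In both cultures Fmn2 was higher in FGOs. Pooled values were 31.4 CPM (30.6 to 32.3) in gonad-derived GROs and 69.9 CPM (68.6 to 71.2) in gonad-derived FGOs, a log2 ratio of 1.14 (2.21-fold), with all 24 FGOs above the highest GRO. In iPSC-derived oocytes they were 27.2 CPM (26.4 to 28.04) and 67.3 CPM (66.0 to 68.5), a log2 ratio of 1.29, with 22 of 24 FGOs above the highest GRO. In vivo the ratio depended on which GROs were used. It was 0.10 with all 24 GROs, 0.99 with GROs 1 to 16 and -0.85 with GROs 17 to 24. With GROs 1 to 16, 16 of 20 in vivo FGOs were above the highest GRO, and with GROs 17 to 24, 15 of 20 were below the lowest. The same holds for IVD@GRO, where the ratio was -0.99 with all in vivo GROs, -0.10 with 1 to 16 and -1.94 with 17 to 24. Fmn2 overlaps no other annotated gene.

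**Figure D3:**
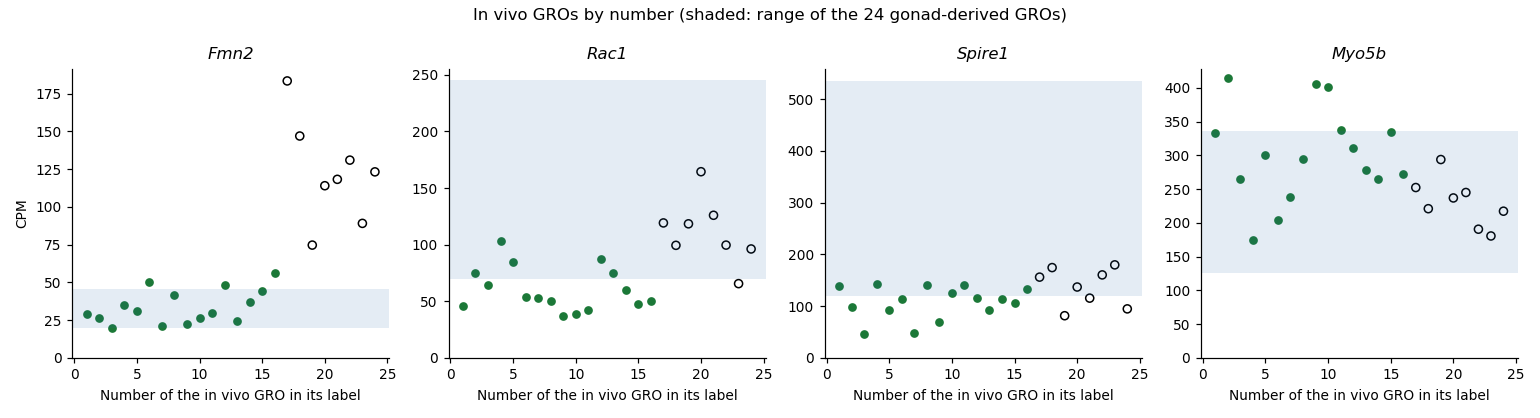
CPM of Fmn2, Rac1, Spire1 and Myo5b in each in vivo GRO against the number in its label (open circles, oocytes 17 to 24), with the range of the 24 gonad-derived GROs shaded. For Fmn2 oocytes 17 to 24 (74.6 to 183 CPM) lie above all of oocytes 1 to 16 (19.7 to 56.0 CPM), while for the other 3 genes the ranges overlap.

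Spire1 (Entrez 68166, chromosome 18, 67488209 to 67612810) encodes a nucleator that works with formin 2, and it differed most between groups. In vivo GROs held 45.7 to 179 CPM with a median of 115. Gonad-derived GROs held 119 to 534 CPM (median 290) and iPSC-derived GROs 116 to 494 CPM (median 238). Both cultured GRO groups thus lay mostly above the in vivo GROs, and 22 of 24 gonad-derived GROs exceeded the highest in vivo GRO. FGOs held 140 to 638 CPM in vivo (median 451), 342 to 593 CPM in 6 dpp (median 450), 381 to 896 CPM in gonad-derived (median 572) and 405 to 705 CPM in iPSC-derived oocytes (median 476). The FGO groups overlapped widely, as did both cultured GRO groups with each other.

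In vivo, pooled Spire1 was 117 CPM (116 to 119) in GROs and 421 CPM (418 to 424) in FGOs, which gave a log2 ratio of 1.84 (3.58-fold). It was 1.97 with GROs 1 to 16 and 1.61 with GROs 17 to 24, and 19 of 20 FGOs were above the highest GRO under each choice. The exception was in vivo FGO 7 (140 CPM), and the next lowest were FGOs 5, 19, 16 and 22 (260 to 308 CPM), all 5 of which the study left out of its own fits on grounds of oocyte size. In culture the growth ratio was 0.98 for iPSC-derived and 0.96 for gonad-derived oocytes, just under 2-fold, from GRO values of 258 and 299 CPM to FGO values of 511 and 581 CPM. IVD@GRO gave 1.35 (2.54-fold), with 1.48 for in vivo GROs 1 to 16 and 1.11 for GROs 17 to 24. At the FGO stage the differences were smaller, 0.36 for IVD@FGO, 0.10 for IVG@FGO (-0.09 with the oocytes kept by the study) and -0.18 for IVP@FGO. A processed pseudogene overlaps Spire1 on the opposite strand, and Smart-seq2 does not mark strand.

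Spire2 (Entrez 234857, chromosome 8, 123332713 to 123369518), the related nucleator, was far scarcer at 10.4 to 20.4 pooled CPM. By pooled value its lowest group was the in vivo GROs (3.57 to 18.0 CPM, median 10.5) and its highest the in vivo FGOs (10.8 to 32.3 CPM, median 19.6). Growth in vivo gave a log2 ratio of 0.94, or 1.04 with GROs 1 to 16 and 0.75 with GROs 17 to 24, and 14 of 20 FGOs were above the highest GRO with all 24 or with GROs 1 to 16, and 15 of 20 with GROs 17 to 24. In culture the growth ratios were 0.52 (iPSC-derived) and 0.25 (gonad-derived), with wide overlap. Gonad-derived FGO 19, which stood apart, held 0.719 CPM, while the other 23 oocytes of its group held 10.4 to 32.1 CPM. Another annotated protein-coding gene, Gm20388, overlaps Spire2 on the same strand, so reads cannot be told apart between them.

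Of the Arp2/3 complex, Actr2 (Entrez 66713, chromosome 11, 20062304 to 20112951), which encodes Arp2, differed by source among FGOs. In vivo FGOs held 4.27 to 6.68 CPM with a median of 5.37, and 6 dpp FGOs 5.36 to 16.0 CPM with a median of 9.01. Gonad-derived FGOs held 6.60 to 15.7 CPM (median 10.2) and iPSC-derived FGOs 7.54 to 21.6 CPM (median 14.1). The lowest iPSC-derived FGO was above the highest in vivo FGO, but the share of all genes without overlap was not counted for this pair. Among FGOs the medians thus went up in the order in vivo, 6 dpp, gonad-derived and iPSC-derived, although neighbouring groups in this order overlapped. The number of culture steps rises in the same order and cannot be told apart from the source of the oocytes. GROs did not have that order, with 2.70 to 5.95 CPM in vivo (median 4.56), 4.13 to 11.7 CPM in gonad-derived (median 6.05) and 2.67 to 7.41 CPM in iPSC-derived oocytes (median 5.16).

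Pooled Actr2 was 4.94 CPM (4.61 to 5.29) in iPSC-derived GROs and 14.3 CPM (13.8 to 14.9) in iPSC-derived FGOs, a log2 ratio of 1.45 (2.73-fold), and all 24 FGOs were above the highest GRO. Growth gave 0.65 in gonad-derived oocytes. In vivo it gave 0.24, or 0.21 and 0.30 with GROs 1 to 16 and 17 to 24, so the split among in vivo GROs mattered little here. Between FGO groups the ratios were 0.71 for IVG@FGO, 0.19 for IVD@FGO and 0.44 for IVP@FGO, all in the same direction. Between GRO groups they were 0.49 for IVD@GRO (0.46 and 0.55 with in vivo GROs 1 to 16 and 17 to 24) and -0.36 for IVP@GRO. For IVG@FGO 21 of 24 6 dpp FGOs exceeded the highest in vivo FGO. Genes with a ratio at or above that of Actr2 made up 3.29% in IVG@FGO, 26.7% in IVD@FGO and 10.2% in IVP@FGO. At this level the added 0.5 CPM lowers the ratio slightly, and Actr2 overlaps no other annotated gene.

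The other subunits differed less by source among FGOs. Actr3 had FGO medians of 67.8 CPM in vivo, 72.1 in 6 dpp, 71.5 in gonad-derived and 86.1 in iPSC-derived oocytes. For Arpc2 the medians were 157, 165, 161 and 174 CPM in the same order. Both were thus also lowest in vivo and highest in iPSC-derived FGOs, but 6 dpp FGOs stood slightly above gonad-derived FGOs. Actr3 (Entrez 74117, chromosome 1, 125392905 to 125435727), which encodes Arp3, had pooled values of 70.2 to 95.7 CPM and was highest in in vivo GROs. Its growth ratio in vivo was -0.44 (-0.37 with GROs 1 to 16, -0.59 with 17 to 24), against 0.03 in iPSC-derived and -0.07 in gonad-derived oocytes. Arpc2 (Entrez 76709, chromosome 1, 74236490 to 74268209), a subunit of the core that holds both Arp proteins, had 158 to 208 CPM and was lower in FGOs than in GROs of each source. Its growth ratios were -0.37 in vivo (-0.30 with GROs 1 to 16, -0.50 with 17 to 24), -0.21 in iPSC-derived and -0.21 in gonad-derived oocytes. In vivo, 19 of 20 FGOs were below the lowest GRO, also of GROs 1 to 16, so a small ratio came with little overlap because oocytes of a group varied little. With GROs 17 to 24 alone no in vivo FGO overlapped them for Arpc2, a separation that 15.0% of genes showed in that choice of oocytes. Between sources of the same stage Arpc2 ratios lay between -0.08 and 0.12, and Actr3 ratios between -0.35 (IVD@GRO) and 0.26 (IVP@FGO). In IVD@GRO the Arpc2 ratio was -0.01 and -0.22 and the Actr3 ratio -0.27 and -0.49 with in vivo GROs 1 to 16 and 17 to 24.

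**Figure D4:**
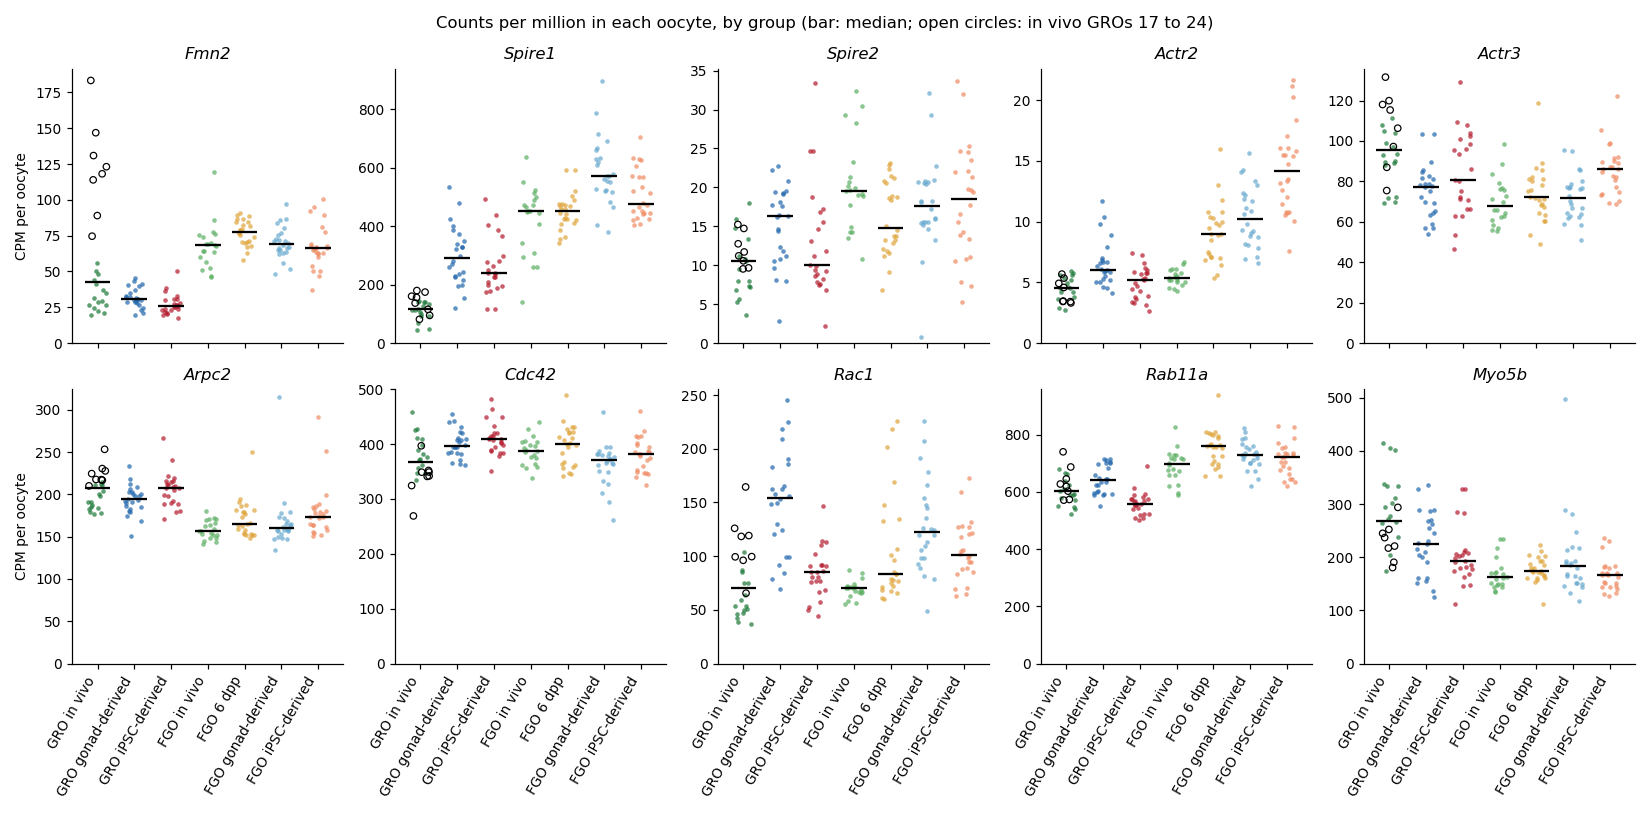
CPM of the 10 genes in each oocyte by group, with bars at the median and open circles for in vivo GROs 17 to 24. Actr2 shows ascending medians from in vivo (5.37 CPM) to iPSC-derived FGOs (14.1 CPM), Spire1 is lowest in in vivo GROs, and Cdc42 and Rab11a vary little.

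Of the GTPases, Rac1 (Entrez 19353, chromosome 5, 143505481 to 143528031) varied most between groups and between oocytes. Gonad-derived GROs held 69.7 to 245 CPM with a median of 155, the highest of the 7 groups. In vivo GROs held 37.0 to 164 CPM with a median of 70.3, and iPSC-derived GROs 44.0 to 146 CPM with a median of 85.4. The gonad-derived median thus stood above those of both other GRO groups. The ranges of all GRO groups overlapped, but none of the 23 iPSC-derived GROs reached the gonad-derived median. FGOs held 55.6 to 86.8 CPM in vivo (median 70.0), 59.9 to 226 CPM in 6 dpp (median 83.5), 49.1 to 226 CPM in gonad-derived (median 122) and 62.5 to 173 CPM in iPSC-derived oocytes (median 101). In vivo FGOs were the narrowest group, with a highest value 1.56 times the lowest against 3.78 times in 6 dpp FGOs.

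For Rac1 the log2 ratio was 0.96 in IVD@GRO and -0.84 in IVP@GRO, where 2.78% of genes had a ratio as low or lower. Both rest on the same gonad-derived GROs. With in vivo GROs 1 to 16 (median 53.3 CPM) the IVD@GRO ratio was 1.30 and 18 of 24 gonad-derived GROs were above the highest of them, and with GROs 17 to 24 (median 109 CPM) it was 0.45. Growth gave -0.15 in vivo with all GROs, 0.19 with GROs 1 to 16 and -0.66 with GROs 17 to 24, so its sign depended on the oocytes used. In culture growth gave 0.33 (iPSC-derived) and -0.25 (gonad-derived). IVG@FGO gave 0.62 from pooled values but 0.25 from medians, and the 7 highest 6 dpp FGOs held 133 to 226 CPM. The end of Rac1 overlaps that of Daglb on the opposite strand over 2309 bases. Daglb had 513 pooled CPM in in vivo and 386 CPM in gonad-derived GROs, where Rac1 had 77.3 and 150 CPM, and its part in the Rac1 counts was not tested.

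Cdc42 (Entrez 12540, chromosome 4, 137319696 to 137357759), which sets up polarity of the oocyte cortex, had the steadiest pooled level between groups. Pooled values lay between 361 and 412 CPM, and its 8 log2 ratios between -0.15 and 0.10. With in vivo GROs 1 to 16 and 17 to 24 the Cdc42 ratio was 0.01 and 0.18 for growth in vivo and 0.05 and 0.22 for IVD@GRO. Individual oocytes ran from 262 to 489 CPM, and the SD over oocytes of a group was 0.090 to 0.16 on the log2 scale. An annotated snRNA gene on the opposite strand overlaps Cdc42.

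Rab11a (Entrez 53869, chromosome 9, 64715300 to 64737756), the GTPase of the moving vesicles, had pooled values of 560 to 642 CPM in GROs and 689 to 753 CPM in FGOs. Growth ratios were 0.34 in iPSC-derived, 0.17 in gonad-derived and 0.18 in in vivo oocytes (0.20 with GROs 1 to 16, 0.12 with 17 to 24). FGOs above the highest GRO numbered 16 of 24 in iPSC-derived and 15 of 24 in gonad-derived oocytes. In vivo they numbered 2 of 20 with all GROs or with GROs 17 to 24, and 12 of 20 with GROs 1 to 16. The Rab11a ratio in IVD@GRO was 0.08, or 0.10 and 0.02 with the same sets of GROs. Between FGO groups Rab11a ratios lay between -0.06 and 0.13. An annotated miRNA gene on the same strand overlaps Rab11a.

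Myo5b (Entrez 17919, chromosome 18, 74442364 to 74772698), the motor that moves Rab11a vesicles along actin, was lower in FGOs than in GROs of each source. Pooled values were 277 CPM in vivo, 226 CPM in gonad-derived and 202 CPM in iPSC-derived GROs, and 168 to 195 CPM in FGOs. The growth ratio was -0.70 in vivo (-0.82 with GROs 1 to 16, -0.42 with 17 to 24), -0.21 in gonad-derived and -0.27 in iPSC-derived oocytes. In vivo, 15 of 20 FGOs were below the lowest GRO under each choice of GROs. IVD@GRO gave -0.29 with all in vivo GROs, -0.41 with 1 to 16 and -0.01 with 17 to 24. An antisense gene overlaps Myo5b, and reads from it cannot be told apart without strand.

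**Figure D5:**
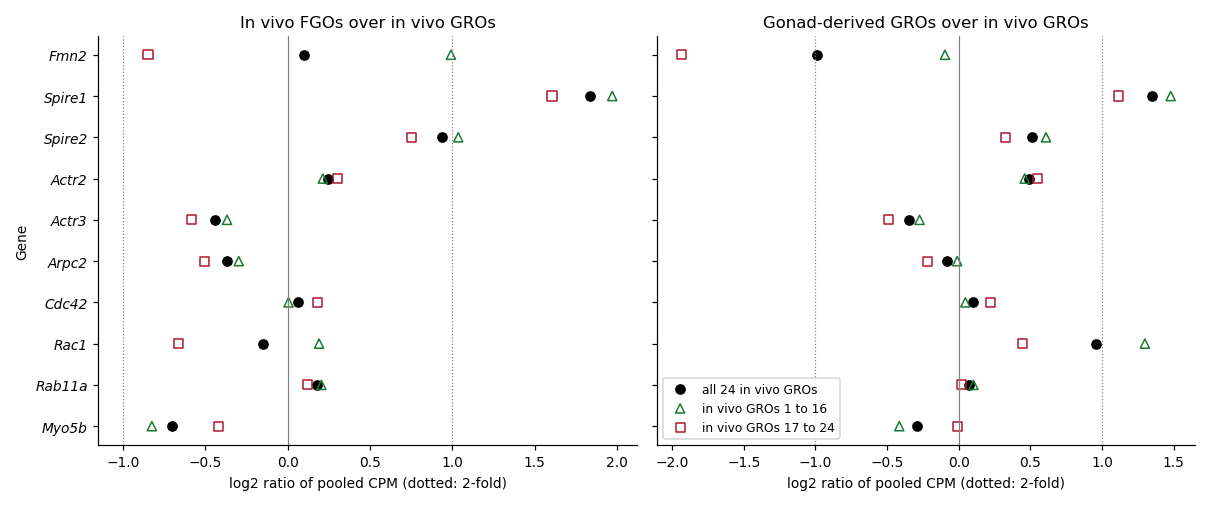
log2 ratio of the 10 genes for in vivo FGOs over in vivo GROs (left) and gonad-derived over in vivo GROs (right), with all 24 in vivo GROs (filled circles), GROs 1 to 16 (triangles) and GROs 17 to 24 (squares). Fmn2 moves from 0.99 to -0.85 on the left and from -0.10 to -1.94 on the right, Rac1 moves in the same way, and Spire1 stays above 1 under each choice.

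The choice among in vivo GROs also set how many members passed 2-fold. With GROs 1 to 16, growth in vivo had 2 members at least 2-fold higher (Spire1 and Spire2) and IVD@GRO had 2 (Spire1 and Rac1), with none lower, where 10.9% and 4.65% of genes were higher and 11.5% and 1.47% lower. With GROs 17 to 24, growth in vivo had Spire1 higher, and IVD@GRO had Spire1 higher and Fmn2 lower, where 12.4% and 5.31% of genes were higher and 18.1% and 9.54% lower. Fmn2 in IVD@GRO then had no overlap between groups, as did 7.06% of genes.

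Oocytes of 1 group also differed from each other. Gonad-derived FGO 19 was the extreme oocyte of its group for 6 members, highest for Fmn2, Spire1, Arpc2 and Myo5b and lowest for Spire2 and Cdc42. Over all genes it lay outside the range of the other oocytes for 51.6%. Without it the growth ratio of gonad-derived oocytes was 1.12 for Fmn2, 0.92 for Spire1, 0.31 for Spire2, -0.26 for Arpc2 and -0.31 for Myo5b, and no member's ratio shifted by more than 0.103. In IVP@FGO the Spire2 ratio went from 0.03 to -0.03. 6 dpp FGO 3 was highest for Actr2, Actr3, Arpc2, Cdc42 and Rab11a and lowest for Spire2, and outside the others' range for 30.3% of all genes.

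Across oocytes of a group (20 to 24), as a description on the log2 scale, Fmn2 and Spire1 had Pearson correlations of 0.25 to 0.70 in the 7 groups, and of 0.67 and 0.48 within in vivo GROs 1 to 16 and 17 to 24. With any 1 oocyte left out they ran from 0.17 to 0.81. Fmn2 and Rac1 had 0.25 to 0.68, with the highest value in in vivo GROs, where it was 0.09 within oocytes 1 to 16 and 0.18 within 17 to 24. With any 1 oocyte left out the 7 groups ran from 0.083 (in vivo FGOs without FGO 16) to 0.72. Actr3 and Myo5b had 0.16 to 0.68, and 0.043 to 0.76 with any 1 oocyte left out. In in vivo GROs this pair had 0.30, but 0.71 within oocytes 1 to 16 and 0.58 within 17 to 24. Other pairs were above 0 in all 7 groups too, among them Arpc2 and Rab11a (0.17 to 0.78). Without GRO 8 that pair had -0.19 in iPSC-derived GROs, and without FGO 14 it had -0.04 in iPSC-derived FGOs. The correlation was computed for every pair of members, only some of which are given, and some pairs mostly went the other way. Fmn2 and Myo5b had -0.61 to 0.15 and Spire1 and Myo5b -0.71 to 0.42, each above 0 in 1 of the 7 groups. Fmn2 and Spire2 had -0.37 to 0.52 and were above 0 in 4 groups. Spire2 and Arpc2 had -0.80 to -0.06 in the 7 groups, and -0.55 and -0.32 within in vivo GROs 1 to 16 and 17 to 24. The -0.80, in gonad-derived FGOs, became 0.08 without FGO 19, so that value rested on 1 oocyte. Leaving out 1 oocyte also took in vivo GROs to at most 0.05 and iPSC-derived FGOs to at most 0.03. In the remaining groups the value stayed below 0. It was at most -0.33 in gonad-derived GROs, -0.30 in iPSC-derived GROs, -0.13 in in vivo FGOs and -0.12 in 6 dpp FGOs. Points of a group share library preparation and the same total as denominator.

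Genes with the most similar pattern over the 7 groups were found among 7481 genes with at least 5 pooled CPM in each group, by the root mean square difference of log2 levels after centring. Nearest to Fmn2 were Ptprj (0.13), Larp4 (0.15) and Suz12 (0.15). Spire1 was closest to Fbxl17 (0.11), Lef1 (0.12) and Dusp10 (0.13), and Actr2 to Dbi (0.12), Rragc (0.14) and Klhl15 (0.14). For Rac1 the nearest genes were more distant, Gm20759 (0.16), Acsl3 (0.17) and Rap2b (0.18), against a range of 1.11 over the groups for Rac1 itself. Steadier members had closer neighbours, with Snx6 at 0.031 from Cdc42, Mrpl3 at 0.046 from Rab11a, Txlna at 0.054 from Myo5b, Nap1l1 at 0.058 from Actr3 and Rcl1 at 0.082 from Spire2.

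The rest of the pathway was read from 10 lists of 138 other genes for actin nucleation, GTPase signalling, vesicle transport, myosins and polarity, of which 132 were in the table. In growth, more of them were lower than higher in FGOs of each source. In vivo, 3 of 119 genes with enough reads (2.52%) were at least 2-fold higher (Cyfip2, Eps8 and Capg), against 10.4% of all genes, and 18 (15.1%) lower, against 13.2%. In iPSC-derived oocytes 5 of 116 (4.31%) were higher (Cyfip2, Tiam1, Pak4, Rab11fip1 and Dlg1), against 6.69%, and 19 (16.4%) lower, against 15.3%. In gonad-derived oocytes 3 of 117 (2.56%) were higher (Cyfip2, Dlg1 and Tmsb4x), against 5.82%, and 16 (13.7%) lower, against 9.98%. These shares are descriptions, and their difference from all genes was not tested. With in vivo GROs 1 to 16, 2 of 118 (1.69%) were higher in vivo (Cyfip2 and Eps8), against 10.9% of all genes, and 14 (11.9%) lower, against 11.5%. With GROs 17 to 24, 4 of 117 (3.42%) were higher (Cyfip2, Dstn, Capg and Eps8), against 12.4%, and 29 (24.8%) lower, against 18.1%. Genes of these counts outside the naming rule were named after their values were seen.

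Among named genes of these lists, 2 subunits of the WAVE complex, which activates Arp2/3, differed in opposite directions during growth. Abi2 was at 71.7 CPM in in vivo GROs and 14.1 CPM in FGOs, a log2 ratio of -2.31, with ratios of -2.60 in iPSC-derived and -2.27 in gonad-derived oocytes and no overlap in any of the 3. With in vivo GROs 1 to 16 and 17 to 24 the Abi2 ratio was -2.14 and -2.59. Cyfip2 was at 13.1 CPM in in vivo GROs and 80.9 CPM in FGOs, a ratio of 2.58 (2.67 and 2.41 with the 2 sets of GROs), and at 42.7 and 35.1 CPM in iPSC-derived and gonad-derived GROs. Rhou, a small GTPase, had a growth ratio of -2.20 in vivo, but -1.26 with GROs 1 to 16 and -3.17 with GROs 17 to 24. Vav3, a guanine nucleotide exchange factor, had growth ratios of -3.06 (iPSC-derived, from 71.4 to 8.11 CPM), -2.18 (gonad-derived) and -1.05 (in vivo, -1.19 with GROs 1 to 16 and within 2-fold with 17 to 24). Ran, a GTPase that signals the position of chromatin to spindle and cortex, had -2.67 in iPSC-derived oocytes and went from 124 to 30.6 CPM in gonad-derived oocytes, against -1.58 in vivo (-1.58 with GROs 1 to 16, -1.57 with 17 to 24), though genes with near-identical copies are counted with uncertainty.

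Between sources of the same stage the counts of list genes in IVD@GRO depended on the in vivo GROs used. With all of them 3 of 118 (2.54%) were higher (Cyfip2, Rhoc and Tpm4), against 4.3% of all genes, and 9 (7.63%) lower, against 2.75%. Cyfip2 was at 1.39, Abi2 at -1.12 and Flna, a filament crosslinker, at -1.52. Using in vivo GROs 1 to 16, 3 of 117 (2.56%) were higher (Cyfip2, Rhoc and Tpm4), against 4.65%, and 3 (2.56%) lower (Tmsb4x, Flna and Myo1e), against 1.47%, with Cyfip2 at 1.48, Abi2 at -0.96 and Flna at -1.17. Using GROs 17 to 24, 4 of 116 (3.45%) were higher (Cyfip2, Cap1, Capg and Tpm4), against 5.31%, and 26 (22.4%) lower, against 9.54%, with 1.22, -1.41 and -2.04 for the same genes. The share of lower genes was thus larger with oocytes 17 to 24 both in the lists and over all genes. In IVP@GRO 2 of 116 (1.72%) were higher (Tpm4 at 1.06 and Rhog), against 2.03%, and 2 (1.72%) lower, among them Myo10 at -1.09, against 1.8%. In IVP@FGO 1 of 115 (0.870%) was higher (Tpm4), against 2.3%, and 2 (1.74%) were lower, among them the unconventional myosin Myo10 at -2.32 (3.71 against 20.5 CPM), against 3.9%. In IVD@FGO 0 of 115 were higher, against 1.64%, and 1 (0.870%) was lower (Tmsb4x), against 0.948%. In IVG@FGO 2 of 116 (1.72%) were higher (Rhoc at 1.17 and Tmsb4x), against 1.25%, and 4 (3.45%) lower (Vav3 at -1.60, Myo6 at -1.02, Fmnl2 and Myh10), against 3.12%.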

How the data were processed

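A deposited table held the authors' unnormalized gene counts and an exonic length for each gene. According to the methods, the authors mapped reads to GRCm38 plus spike-in sequences using STAR, multimapping reads were placed at random, and uniquely mapped reads were counted with QuasR on exons of 1 randomly chosen transcript per gene. Strand use was not stated, which leaves overlapping genes uncertain. From these deposited counts, pooled CPM, RPKM (with the deposited length) and log2 ratios with a pseudocount of 0.5 CPM were computed in Python 3.11.15 (numpy 2.4.6, scipy 1.17.1). Over all genes, those with more than 1 CPM in at least 3 oocytes of the groups compared entered the background shares. The labels name no animal or culture, so no test was made. Symbols and coordinates come from RefSeq (GRCm38.p6, 21907 of 21950 genes matched), overlaps from GENCODE vM21. In each comparison the text names up to 3 list genes of largest ratio past 2-fold, also in medians, with at least 5 CPM in the higher group. The members and lists were chosen with earlier results of these data known. Alternatives used TMM and RLE factors of edgeR 4.0.16, other pseudocounts, no filter, medians, means, the oocytes kept by the study, and oocytes left out. Some list genes and genes of similar pattern are not reported here.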

Additional observations from a re-analysis of the deposited data

How the results depend on the processing

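No paired analysis was possible because the numbers only name oocytes and no test was made. The count of members at least 2-fold apart moved only as follows. With in vivo GROs 1 to 16 it was 2 for growth in vivo and 2 for IVD@GRO (1 in both with all), and with GROs 17 to 24 it was 2 for IVD@GRO, both alternatives chosen after seeing the data. With medians over oocytes IVD@GRO had 2 (Rac1 at 1.13). Leaving out each oocyte in turn gave 1 to 2 for growth of gonad-derived oocytes, where Spire1 reached 1.01 without gonad-derived GRO 24, and 1 to 2 for IVD@GRO, where Fmn2 (down to -1.03, without in vivo GRO 3) and Rac1 (1.03 without in vivo GRO 20) crossed 2-fold. TMM or RLE scaling put Spire1 in growth of iPSC-derived oocytes at 1.06, a count of 3, and leaving out oocytes gave 2 to 3 there (Spire1 at 1.01 to 1.05 without iPSC-derived GRO 5, 6, 15, 19 or 24). Of the log2 ratios of members under all alternatives, none that passed 2-fold changed sign, and 7 moved by more than the spread between oocytes, all of them with in vivo GROs 1 to 16 or 17 to 24. Over all genes the number at least 2-fold apart depended on the pseudocount: with 2 CPM it went from 3111 to 2070 for growth in vivo, 2889 to 1916 and 2065 to 1283 for growth of iPSC-derived and gonad-derived oocytes, 499 to 259 for IVP@GRO, 920 to 433 for IVD@GRO, 800 to 388 for IVP@FGO, 336 to 127 for IVD@FGO and 566 to 246 for IVG@FGO. With 0.1 CPM the last 5 were 832, 1468, 1298, 643 and 991. With in vivo GROs 17 to 24 IVD@GRO had 1897, and with medians IVD@FGO had 222. Each group is 1 sample, so no ratio has a replicate check.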
